A study of Mus musculus with 42 samples.

Results

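The mitochondrial carriers of the Slc25 family were followed through early mouse development in allele-resolved RNA-seq data. The members were all genes of the stage table whose symbol is Slc25a followed by a number. This gave 47 genes of 24083, and the same 47 symbols stood among the 23986 genes of the morula table. A separate list of 1052 X-linked genes in EedmNull embryos included 4 members: Slc25a5, Slc25a14, Slc25a43 and Slc25a53. The other 43 members lie on autosomes.

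The RNA of the stage and morula tables came from embryos of C57BL/6N mothers and PWK/PhJ fathers, female except for 1 group of males. All libraries were made with Smart-seq2, which amplifies polyadenylated RNA from few cells and keeps no strand. The stage table covered 8-cell embryos (3 samples) and morulae (3), the inner cell mass (ICM, 2) and trophectoderm (TE, 3) of E3.5 blastocysts, E6.5 epiblast (1), E6.5 visceral endoderm (VE, 3), E6.5 extraembryonic ectoderm (ExE, 2) and E9.5 yolk sac (1). The morula table covered Xp XRRa KO female morulae (4), named for a deletion of the XRRa region on the paternal X chromosome, control male morulae (4) and control female morulae (3). Except for that deletion, all of these embryos are labelled wild type. The deletion itself was not checked here. The EedmNull samples were ExE of 13 female E7.5 embryos whose mothers carried Eed fl/fl with Gdf9-Cre, an oocyte-specific Cre, and whose fathers were wild-type PWK/PhJ. These embryos lack the maternal supply of Eed, a subunit of the Polycomb complex PRC2, and no control embryos for EedmNull were analysed here. Each cross ran in 1 direction, and an effect of strain therefore cannot be told apart from one of the parent of origin.

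Values are FPKM (fragments per kilobase of gene, scaled to library size), listed for the maternal and the paternal allele, and a total is the sum of both. In the stage and morula tables the authors pooled the samples of a group into 1 column per allele, so no spread between samples could be computed and no group difference was tested. Marker genes were checked against the labels. All 6 endoderm markers reached 5 FPKM in VE, all 5 ExE markers in ExE, all 6 trophectoderm markers in TE and all 5 pluripotency markers in ICM. The epiblast column held 4 of 5 pluripotency markers and the yolk sac column held 5 of 6 endoderm and 1 of 3 blood markers, the other 2 listed at 0. These counts alone did not separate the tissues. ExE also held 4 of 5 pluripotency markers, summing to 50.8 FPKM against 217 in epiblast. Morulae held all 6 trophectoderm markers, and VE held 3 of 6. Of 3 markers of decidua, a maternal tissue, 1 reached 5 FPKM in VE. They summed to 16.0 FPKM in VE and to 2.41 FPKM in ExE, the next highest stage column. Their part in the VE totals and paternal shares was not tested. The yolk sac column was sparse, with 4163 genes at 1 FPKM or more, against 7178 to 9164 in the other stage columns. In bulk samples, fewer cells of a type and less RNA per cell cannot be told apart.

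Slc25 proteins sit mostly in the inner mitochondrial membrane, which is otherwise nearly impermeable to metabolites. Each swaps or moves a particular cargo, so together they tie the enzymes of the matrix to the cytosol. The ADP/ATP carriers export ATP and import ADP, the phosphate carrier supplies the phosphate for ATP synthesis, and the aspartate/glutamate and oxoglutarate carriers form the malate-aspartate shuttle that moves reducing power inward. Others carry citrate for lipid synthesis, acylcarnitines for fatty acid oxidation, amino acids, cofactors or iron. Preimplantation mouse embryos pass from a dependence on pyruvate to a use of glucose around compaction and blastocyst formation.

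Promoter windows of 6 members are shown because the results below turn on these genes. Slc25a5, Slc25a43 and Slc25a14 are the X-linked members with 1 FPKM or more. Slc25a12 and Slc25a13 are a pair of carriers with the same cargo and different stage profiles, and Slc25a31 is an ADP/ATP carrier best known from germ cells. Each line gives the 250 bases upstream of a RefSeq transcription start (GRCm38.p6), 5′ to 3′ on the gene's strand, with matches to the GC box (GGGCGG), the E-box (CACGTG), the ETS core (CCGGAAG) or the TATA box (TATAAA) on either strand in capitals. These motifs do not overlap each other here. Slc25a5 is read from chrX:36795347-36795596 (plus strand), Slc25a43 from chrX:36743382-36743631 (plus), and Slc25a14, the most downstream of its 3 listed windows, from chrX:48623424-48623673 (plus). Slc25a12 is read from chr2:71367756-71368005 (minus), Slc25a13 from chr6:6217174-6217423 (minus) and Slc25a31 from chr3:40708621-40708870 (plus).
Slc25a5: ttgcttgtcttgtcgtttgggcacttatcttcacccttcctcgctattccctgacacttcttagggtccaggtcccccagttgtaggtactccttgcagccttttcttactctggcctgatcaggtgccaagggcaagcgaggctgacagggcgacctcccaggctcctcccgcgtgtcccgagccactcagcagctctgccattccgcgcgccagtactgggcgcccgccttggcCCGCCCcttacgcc
Slc25a43: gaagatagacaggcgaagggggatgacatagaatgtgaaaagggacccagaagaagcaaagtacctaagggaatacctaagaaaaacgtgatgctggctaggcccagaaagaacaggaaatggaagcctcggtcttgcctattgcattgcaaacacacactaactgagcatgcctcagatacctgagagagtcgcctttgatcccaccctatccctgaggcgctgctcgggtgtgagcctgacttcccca
Slc25a14: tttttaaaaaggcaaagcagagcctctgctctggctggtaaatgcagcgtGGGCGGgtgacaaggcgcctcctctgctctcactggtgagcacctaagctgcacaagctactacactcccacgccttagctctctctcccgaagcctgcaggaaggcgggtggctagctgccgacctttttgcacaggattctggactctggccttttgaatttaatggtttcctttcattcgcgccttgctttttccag
Slc25a12: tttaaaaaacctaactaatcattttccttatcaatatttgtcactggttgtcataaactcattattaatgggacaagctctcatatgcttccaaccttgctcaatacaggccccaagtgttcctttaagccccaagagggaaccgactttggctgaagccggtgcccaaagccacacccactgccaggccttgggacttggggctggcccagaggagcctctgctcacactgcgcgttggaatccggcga
Slc25a13: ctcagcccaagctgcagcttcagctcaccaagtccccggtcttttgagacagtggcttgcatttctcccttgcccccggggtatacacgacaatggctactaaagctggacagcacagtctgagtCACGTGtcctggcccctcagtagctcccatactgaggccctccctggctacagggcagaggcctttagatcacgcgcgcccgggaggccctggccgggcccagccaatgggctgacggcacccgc
Slc25a31: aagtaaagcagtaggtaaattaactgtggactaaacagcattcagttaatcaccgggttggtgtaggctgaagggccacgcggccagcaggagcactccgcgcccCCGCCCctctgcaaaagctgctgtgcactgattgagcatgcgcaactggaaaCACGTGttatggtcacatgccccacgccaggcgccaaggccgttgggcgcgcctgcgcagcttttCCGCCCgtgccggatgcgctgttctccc

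Slc25a5 had 1 GC box, Slc25a14 had 1 and Slc25a31 had 2, while neither Slc25a12 nor Slc25a13 had a match to it. Slc25a13 and Slc25a31 each held 1 E-box. CG dinucleotides numbered 18 in the Slc25a31 window, 14 in Slc25a5, 11 in Slc25a13, 9 in Slc25a14 and 6 each in Slc25a43 and Slc25a12. Across the 36 members found in the RefSeq promoter table, with 46 windows, 69.6% of windows held a GC box, against 32.7% of all 32851 windows. The E-box stood in 17.4% of member windows and 6.02% of all windows, the ETS core in 13% and 6.91%, and the TATA box in 4.35% and 12.4%. The median window held 11.5 CG dinucleotides among members and 6 among all windows. A match is a run of letters and not a shown binding site, and windows of 1 gene can overlap.

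Most of the family was detected at some stage, and a few carriers made up most of its RNA. Of the 47 members, 30 reached 5 FPKM and 35 reached 1 FPKM in at least 1 stage column. Slc25a30, Slc25a33, Slc25a34 and Slc25a35 were listed at 0 in all 8 stage columns, and 8 more stayed under 1 FPKM. In the 7 columns before the yolk sac, 23 members were at 1 FPKM or more throughout. Summed over the family, the level was 990.5 FPKM in 8-cell embryos, 1435 in morulae, 1399 in ICM, 1641 in TE, 1165 in epiblast, 1127 in VE, 2656 in ExE and 612 in yolk sac. Slc25a3, Slc25a4 and Slc25a5 together supplied 56.5% to 82.5% of that sum. Among the 30 members at 5 FPKM, the highest column was 8-cell for 2, morula for 5, ICM for 7, TE for 5, epiblast for 2, ExE for 5 and yolk sac for 4, and VE for none. The same count over all genes was not made, so these numbers are not read as a trait of the family. Column sums over all genes ranged from 135523 FPKM in yolk sac to 446925 in ExE, with 334639 in VE.

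**Figure D1:**
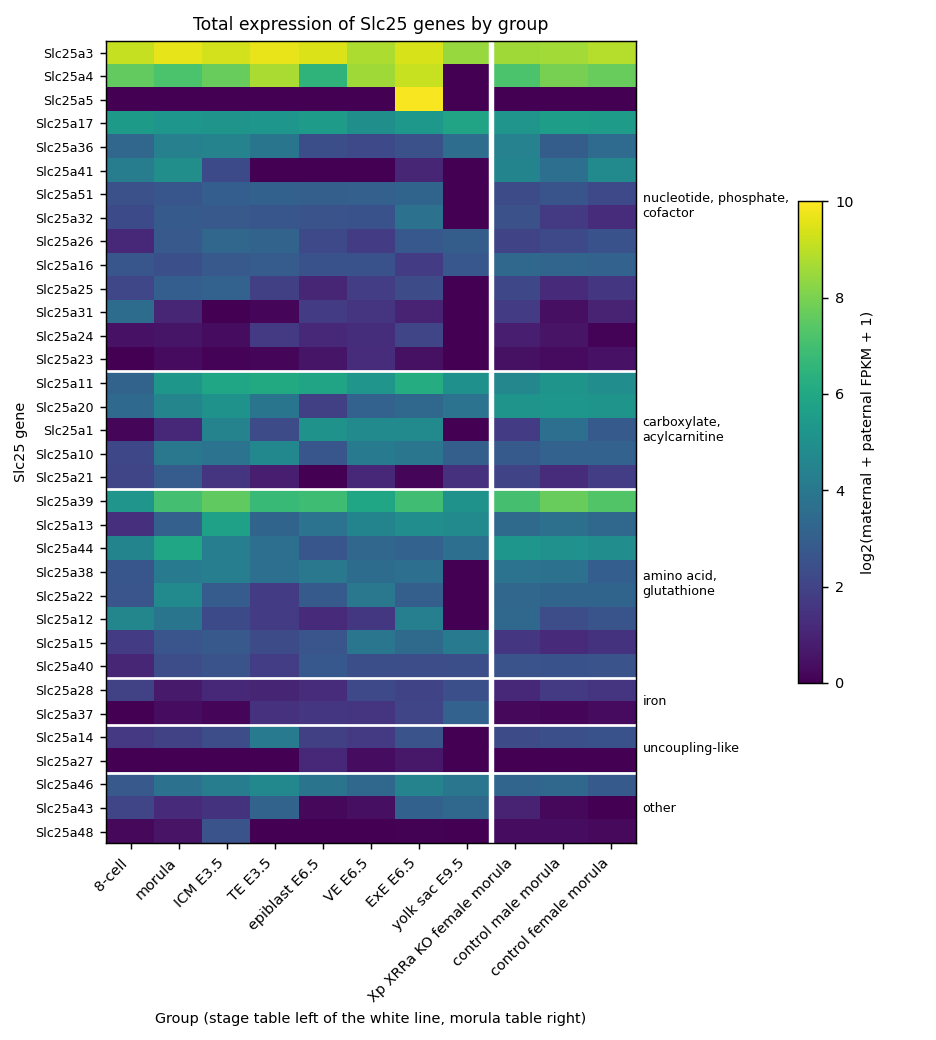
Total FPKM of Slc25 genes at 1 FPKM or more in a stage column, as log2(FPKM + 1) in colour, by group (columns) and role (blocks of rows). Slc25a3 is bright in every column, Slc25a5 is listed at 0 outside ExE, and Slc25a41 and Slc25a44 are brightest in morulae.

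Slc25a3, the phosphate carrier, was the most abundant member in every stage column except ExE, where Slc25a5 was higher. Its total was 554.5 FPKM in 8-cell embryos, 798 in morulae, 633 in ICM, 818 in TE, 703 in epiblast, 438 in VE, 664 in ExE and 346 in yolk sac. TE was the high column and yolk sac the low one. Slc25a4, the ADP/ATP carrier that dominates in heart and muscle, had 192 FPKM in 8-cell embryos, 143 in morulae, 203 in ICM, 421 in TE, 90.9 in epiblast, 382 in VE and 569 in ExE. It was listed at 0 in the single yolk sac sample, where 5 members at 5 FPKM or more in VE were listed at 0. Of the columns above 0, epiblast was the low one and ExE the high one.

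Slc25a5, the ADP/ATP carrier of most proliferating cells, was listed at 0 in 7 of 8 stage columns and in all 3 columns of the morula table, and at 958 FPKM in ExE. These zeros are not read as absence. Ppia, a cyclophilin used by every cell, was likewise listed at 0 in 6 stage columns and at 2218 FPKM in TE and 3382 in ExE. Among the stage columns, 68 genes were listed at 0 in 7 columns and at 100 FPKM or more in the remaining one, and for 66 of them that column was ExE. More widely, of 1430 genes at 100 FPKM or more in a stage column, 735 were listed at 0 in at least 1 other, so a 0 of any member is given as listed and not read as a low level. The annotation used here also lists 2 pseudogenes of Slc25a5, whose reads the authors' counting could share with it. Slc25a5 is therefore uncertain in these tables, and sums that include it carry that limit.

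The family's other ADP/ATP carrier was highest in 8-cell embryos. Slc25a31 had 10.5 FPKM in 8-cell embryos, 1.12 in morulae, 0 in ICM, 0.114 in TE, 2.36 in epiblast, 1.83 in VE, 0.919 in ExE and 0 in yolk sac. Slc25a41, an ATP-Mg/phosphate carrier, had 17.8 FPKM in 8-cell embryos, 30.1 in morulae, 3.69 in ICM and 1.10 in ExE, and was listed at 0 in TE, epiblast, VE and yolk sac. Among the columns above 0, both were highest before the blastocyst; the columns at 0 are not read as low levels. Slc25a24, Slc25a23 and Slc25a25, which carry the same ATP-Mg cargo, stayed at or below 3.22, 1.43 and 7.89 FPKM in the stage table, and Slc25a25 was highest in ICM.

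Cofactor and nucleotide carriers differed in how steady they were. Slc25a17, a peroxisomal member that carries coenzyme A and related nucleotides, lay between 30.3 and 56.5 FPKM in all 8 stage columns. Slc25a51, the NAD carrier, lay between 4.59 and 8.38 FPKM before the yolk sac. Slc25a32, which supplies folate and FAD, had 3.79 to 6.07 FPKM in 6 columns and 12.5 FPKM in ExE, and was listed at 0 in yolk sac. Slc25a36, a pyrimidine nucleotide carrier, had 8.75, 19.2, 20.9 and 13.9 FPKM in 8-cell, morula, ICM and TE and 3.58 to 4.64 FPKM in the E6.5 tissues. It was therefore high in preimplantation columns and low at E6.5, whereas Slc25a17 showed no such division.

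The aspartate/glutamate carriers had different stage profiles. Slc25a12 (aralar) had 23.0 FPKM in 8-cell embryos, 13.7 in morulae, 3.76 in ICM, 2.31 in TE, 1.29 in epiblast, 2.10 in VE, 19.1 in ExE and 0 in yolk sac. Slc25a13 (citrin) had 1.56 FPKM in 8-cell embryos, 7.29 in morulae, 51.6 in ICM, 8.33 in TE, 12.9 in epiblast, 21.8 in VE, 28.8 in ExE and 26.9 in yolk sac. Slc25a12 was the higher of the pair in the 8-cell and morula columns, and Slc25a13 in the 5 columns from ICM to ExE; the yolk sac 0 is not read as a level. In the separately normalized morula table Slc25a13 was the higher one, with 9.84 FPKM of Slc25a13 and 9.30 of Slc25a12 in Xp XRRa KO, 12.1 and 4.10 in control male, and 9.16 and 5.01 in control female morulae, so the order in morulae differed between the tables. ExE held both at over 19 FPKM. Slc25a11, the oxoglutarate carrier of the same shuttle, had 8.20 FPKM in 8-cell embryos, 38.2 in morulae and 31.2 to 72.4 in the later columns.

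Citrate, acylcarnitine and branched-chain amino acid carriers each had a profile of their own. Slc25a1, the citrate carrier, had 0.134 FPKM in 8-cell embryos, 1.21 in morulae, 21.4 in ICM, 3.92 in TE, 33.6 in epiblast, 26.2 in VE and 25.8 in ExE, and was listed at 0 in yolk sac. Slc25a20, the carnitine/acylcarnitine carrier, had 9.78, 22.2, 33.1 and 13.9 FPKM in 8-cell, morula, ICM and TE, then 2.76 in epiblast, 7.92 in VE, 9.48 in ExE and 13.2 in yolk sac. The epiblast was thus the highest column for the citrate carrier and the lowest for the acylcarnitine carrier. Slc25a44, a branched-chain amino acid carrier, had 21.6 FPKM in 8-cell embryos, 58.4 in morulae, 18.5 in ICM, 11.6 in TE, 5.43 in epiblast, 8.86 in VE, 7.92 in ExE and 11.4 in yolk sac. Slc25a10, the dicarboxylate carrier, lay between 3.54 FPKM in 8-cell embryos and 24.4 FPKM in TE.

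**Figure D2:**
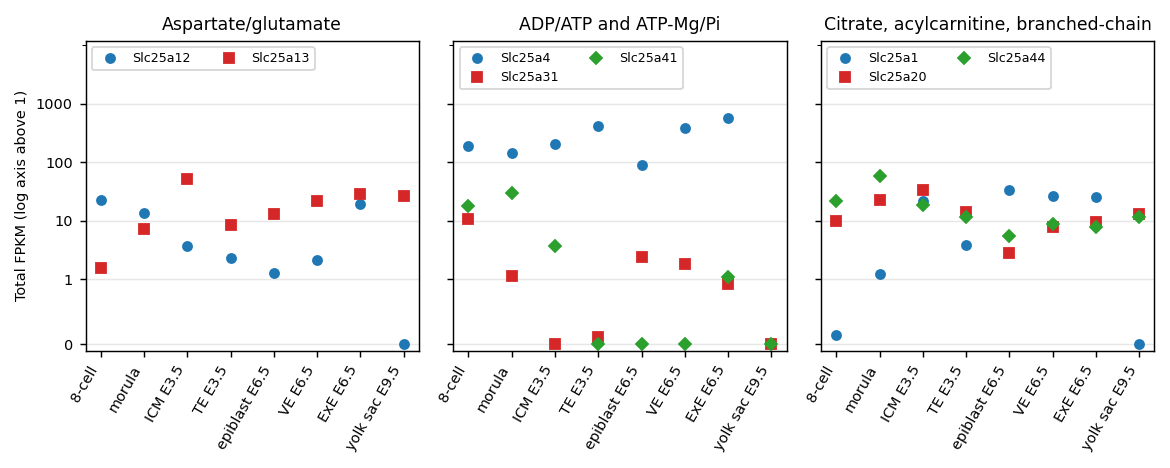
Total FPKM of 8 Slc25 genes in the 8 stage columns (log axis above 1, linear below), 1 point per pooled column. Slc25a12 lies above Slc25a13 in 8-cell embryos and morulae and below it from ICM to ExE, Slc25a31 and Slc25a41 have their highest values before the blastocyst (their zeros are not read as low levels), and Slc25a1 exceeds Slc25a20 in the E6.5 tissues; the 3 symbols at 0 in yolk sac in the middle panel overlap.

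Slc25a39, which imports glutathione, had 36.0 FPKM in 8-cell embryos, 130 in morulae, 187 in ICM, 107 in TE, 117 in epiblast, 57.9 in VE, 121 in ExE and 33.5 in yolk sac. Its relative Slc25a40 lay at 1.13 to 5.75 FPKM, so Slc25a39 was the higher of the glutathione pair in every stage column. Slc25a37, mitoferrin 1, which feeds iron to heme synthesis in red cell precursors, had 7.93 FPKM in yolk sac and 3.23 FPKM or less elsewhere. Slc25a28, mitoferrin 2, had 0.639 to 4.44 FPKM across the stage columns. Slc25a15, an ornithine carrier of the urea cycle, was highest in yolk sac at 16.8 FPKM and next in VE at 14.1 FPKM. Slc25a46, an outer membrane protein of mitochondrial dynamics, lay between 5.90 FPKM in 8-cell embryos and 24.6 FPKM in TE. The yolk sac values come from 1 sample and 1 sparse column.

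Columns were compared by a rule of size. A gene needed 5 FPKM in 1 of the columns, a value above 0 in both, and columns at least 2-fold apart once 1 was added to each FPKM. Log2 ratios below are on that scale, which understates the change of low genes. The percentage of all genes past the rule stands beside each count over the members, also where ratios were centred on the median log2 ratio of all genes. Comparisons share columns (ICM enters 4 of them), so their counts are not independent of each other. To gauge how far columns of like embryos differ, the stage table morula was set beside control female morula, both wild-type females but normalized separately; this gauge was chosen after seeing the data. Of 24 members with a ratio, 8 were at least 2-fold apart, against 27.6% of all genes. Slc25a12, Slc25a15, Slc25a21, Slc25a22, Slc25a25, Slc25a32 and Slc25a38 were higher in the stage table morula and Slc25a1 was lower. Ratios of this size were thus also found between columns of the same kind of embryo.

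Many carriers had a higher FPKM in the morula column than in the 8-cell column, and so did many other genes. Of 24 members with a ratio, 10 were higher, against 31.3% of all genes, and 1 was lower, against 6.13%; the members' median log2 ratio was 0.87, and that of all genes was 0.49. The largest gains were in Slc25a22, a glutamate carrier (25.7 FPKM in morulae against 5.17 in 8-cell embryos, log2 ratio 2.11), Slc25a11 (2.09), Slc25a39 (1.82), Slc25a10 (1.82) and Slc25a13 (1.70). Of these, only Slc25a22 also differed 2-fold between the wild-type morula columns above, with 8.41 FPKM in control female morulae. Slc25a10 came near it, with 15.1 FPKM in the stage table morula and 7.95 in control female morulae (log2 ratio 0.84). The same ratio was 0.40 for Slc25a11, -0.24 for Slc25a39 and -0.29 for Slc25a13. Slc25a31 was the lower one, at a log2 ratio of -2.44. By role, 5 of 7 measured amino acid and glutathione carriers, 3 of 4 carboxylate and acylcarnitine carriers and 2 of 12 nucleotide and cofactor carriers were higher. After centring on the median of all genes, 6 members were higher, against 17.3% of all genes, and 2 lower, against 16.1%; among amino acid and glutathione carriers this left 3 higher and 1 lower. Of 13 ATP synthase genes, 4 were higher, Atp5d (1.67), Atp5b (1.54) and Atp5g2 (1.40) the most, but after centring 2 were higher and 2 lower. The pyruvate carrier subunits were lower in morulae, with 172 FPKM of Mpc2 in morulae against 484 in 8-cell embryos and log2 ratios of -1.49 for Mpc2 and -1.03 for Mpc1.

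The blastocyst lineages were set against the morula and against each other. In ICM 2 of 24 members were higher than in morulae, against 18% of all genes: Slc25a1 (log2 ratio 3.34) and Slc25a13 (2.67). Another 5 were lower, against 10.1% of all genes: Slc25a41 (-2.73), Slc25a22 (-1.81), Slc25a12 (-1.62), Slc25a44 (-1.61) and Slc25a21, the oxoadipate carrier (-1.40). In TE 3 of 24 were higher than in morulae, against 21.7% of all genes: the X-linked Slc25a14 (2.09) and Slc25a43 (1.95), and Slc25a4 (1.56). In TE 6 were lower, against 16.9% of all genes, led by Slc25a22 (-3.01), Slc25a44 (-2.24), Slc25a12 (-2.15) and Slc25a21 (-2.06). Slc25a41 was listed at 0 in TE and at 30.1 FPKM in morulae, so no ratio is given. Slc25a12, Slc25a21, Slc25a22 and Slc25a44 were thus lower in both lineages, and both comparisons use the same morula column; Slc25a1, Slc25a12, Slc25a21 and Slc25a22 also differed 2-fold between the wild-type morula columns above.

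ICM and TE of the same blastocyst stage differed in 8 members. In ICM 5 of 23 were higher, against 12.6% of all genes, and 3 were lower, against 11.6%. Slc25a13 (51.6 FPKM in ICM against 8.33 in TE, log2 ratio 2.49), Slc25a1 (2.18), Slc25a25 (1.27), Slc25a22 (1.20) and Slc25a20 (1.20) were higher in ICM. Slc25a14 (-1.72), Slc25a43 (-1.69) and Slc25a4 (-1.05) were lower. None of 13 ATP synthase genes and none of 13 other mitochondrial transporters with a ratio passed the rule between these columns. The ICM column also held all 6 trophectoderm markers at 5 FPKM or more, with a summed level of 1225 FPKM in ICM against 3692 FPKM in TE and none at 0. The pluripotency markers summed to 766 FPKM in ICM and 116 FPKM in TE. The part of either marker set in these differences was not tested.

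The E6.5 epiblast and VE were set against ICM. In the epiblast no member of 22 was higher, against 13.6% of all genes, and 8 were lower, against 26.4%. The lowest were Slc25a20 (2.76 FPKM in epiblast against 33.1 in ICM, log2 ratio -3.18), Slc25a25 (-2.09), Slc25a36 (-2.07), Slc25a13 (-1.92) and Slc25a44 (-1.60). The median of all genes was -0.23 in this comparison, and after centring on it 5 members were lower, against 21.6% of all genes. In VE 2 of 21 were higher than in ICM, against 15.1% of all genes: Slc25a15 (1.11) and Slc25a22 (1.06). Another 7 were lower, against 30.8%, led by Slc25a36 (-2.26), Slc25a20 (-1.94) and Slc25a39 (-1.67); the median of all genes was -0.48, and after centring 3 were higher, against 22.1% of all genes, and 5 lower, against 18.1%. Among other mitochondrial transporters, Sfxn1, a serine transporter, was higher in epiblast (44.2 FPKM, against 1.13 in ICM, log2 ratio 4.41) and in VE (42.8 FPKM, 4.36).

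ExE was set against TE and, separately, against the single epiblast sample, and both comparisons use the same ExE column. Against TE, 6 of 23 members were higher, against 19.4% of all genes, and 3 were lower, against 17%. Slc25a12 (19.1 FPKM in ExE against 2.31 in TE, log2 ratio 2.60), Slc25a1 (2.45), Slc25a13 (1.67), Slc25a22 (1.29) and Slc25a15 (1.11) were higher, and Slc25a14 (-1.52), Slc25a36 (-1.40) and Slc25a16 (-1.21) lower. Of the higher ones, 4 of 6 belonged to the 7 measured amino acid and glutathione carriers. After centring on the median of all genes, which was 0.18, 4 members were higher, against 15.3%, and 3 lower, against 20%; Slc25a15 and Slc25a32 were no longer past the rule. Against the epiblast, 7 of 21 members were higher in ExE, against 16.2% of all genes, and none was lower, against 6.53%. Slc25a12 (3.14), Slc25a43 (2.92), Slc25a4 (569 FPKM in ExE against 90.9 in epiblast, 2.63), Slc25a20 (1.48) and Slc25a10 (1.23) led that list; after centring, 4 were higher, against 11.1% of all genes, and Slc25a10 was no longer among them. None of 13 ATP synthase genes passed the rule between ExE and epiblast.

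Endoderm markers summed to 2714 FPKM in VE and 235 FPKM in ExE, where 4 of 6 reached 5 FPKM, and ExE markers to 1.07 FPKM in VE and 297 FPKM in ExE; their part in what follows was not tested. VE was lower than ExE in 6 of 20 members, against 24.5% of all genes, and higher in none, against 10%. Slc25a12 (2.10 FPKM in VE against 19.1 in ExE, log2 ratio -2.70), Slc25a43 (-2.70), Slc25a32 (-1.23), Slc25a46 (-1.12) and Slc25a39 (-1.05) were among the lower ones. The median of all genes was -0.46, and after centring 1 member was higher, against 16.9% of all genes, and 2 lower, against 10.3%. In the single yolk sac sample 4 of 15 members were higher than in VE, against 15% of all genes: Slc25a43 (2.97), Slc25a37 (1.63), Slc25a36 (1.40) and Slc25a26, the S-adenosylmethionine carrier (1.17). Slc25a10 (-1.14) was lower, against 28.4% of all genes. After centring on the median of all genes, which was -0.27, 5 members were higher, against 20.7%, and none was lower, against 21.9%, so the call on Slc25a10 was lost. Slc25a1, Slc25a4, Slc25a22, the glycine carrier Slc25a38 and Slc25a51 were listed at 0 in yolk sac and at 5 FPKM or more in VE.

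The levels of the family differed little between the groups of the morula table. Of 18 members with a ratio between Xp XRRa KO and control female morulae, none was higher, against 4.04% of all genes, and 1 was lower, against 3.41%. That one was Slc25a1, with 2.31 FPKM in Xp XRRa KO against 6.13 in control females (log2 ratio -1.11), a gene that also differed between the wild-type morula columns. The members' median log2 ratio was 0.00, and that of all genes was 0.05. Between control male and control female morulae, none of 19 was higher, against 2.8% of all genes, and 1 was lower, against 2.58%: Slc25a41, with 11.5 FPKM in control male and 25.8 FPKM in control female morulae (-1.10). Trophectoderm markers summed to 397 FPKM in Xp XRRa KO, 1235 in control male and 646 in control female morulae, and their part in these differences was not tested. Slc25a3 had 384 FPKM in Xp XRRa KO, 389 in control male and 473 in control female morulae, and Slc25a4 had 144, 247 and 202 FPKM in the same order. Of 13 ATP synthase genes, 2 were lower in Xp XRRa KO than in control female morulae, against 3.41% of all genes: Atp5e (-1.29) and Atp5j2 (-1.08). The median log2 ratio of the 13 was -0.72, so the set as a whole lay lower. After centring, 3 were lower, against 3.86% of all genes.

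The X-linked members were read for the share of expression that came from the paternal X, which is silenced in the extraembryonic lineages of female mouse embryos by Xist and reactivated in the epiblast lineage. The paternal share is the paternal FPKM as a percentage of the total, at a total of 1 FPKM or more. Slc25a14, an uncoupling-protein-like carrier, had totals of 2.17 FPKM in 8-cell embryos, 2.97 in morulae, 4.14 in ICM, 15.9 in TE, 2.67 in epiblast, 2.26 in VE and 4.92 in ExE. Its paternal share was 47.6% in 8-cell embryos, 38.4% in morulae, 0.450% in ICM, 1.31% in TE, 38.1% in epiblast, 0% in VE and 5.03% in ExE. It was near zero in ICM, TE and VE and over 30% in 8-cell embryos, morulae and epiblast. The medians of all X-linked genes in the same 7 columns were 42.6%, 26.1%, 8.49%, 4.45%, 47.8%, 0.607% and 4.73%. No spread can be given for either.

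Slc25a43, whose substrate is not firmly known, had 3.23 FPKM in 8-cell embryos, 1.34 in morulae, 1.80 in ICM, 8.02 in TE, 7.71 in ExE and 9.49 in yolk sac, and under 1 FPKM in epiblast and VE. Its paternal share was 25% in 8-cell embryos, 28.6% in morulae, 0% in ICM, 3.13% in TE, 0% in ExE and 0% in yolk sac. Its total was thus highest in TE, ExE and yolk sac, where nearly all of it was maternal. The median X-linked gene also had a low paternal share there, 4.45% in TE, 4.73% in ExE and 0% in yolk sac. Slc25a5 is the next protein-coding gene to Slc25a43 on the X chromosome. In ExE, its only stage column above 0, Slc25a5 had 475.9 FPKM maternal and 482.4 FPKM paternal, a share of 50.3%, where its neighbour Slc25a43 stood at 0% and the median X-linked gene at 4.73%. The limits on Slc25a5 given above hold for this share too. Slc25a53 stayed at or below 0.667 FPKM in every stage column and has no share.

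**Figure D3:**
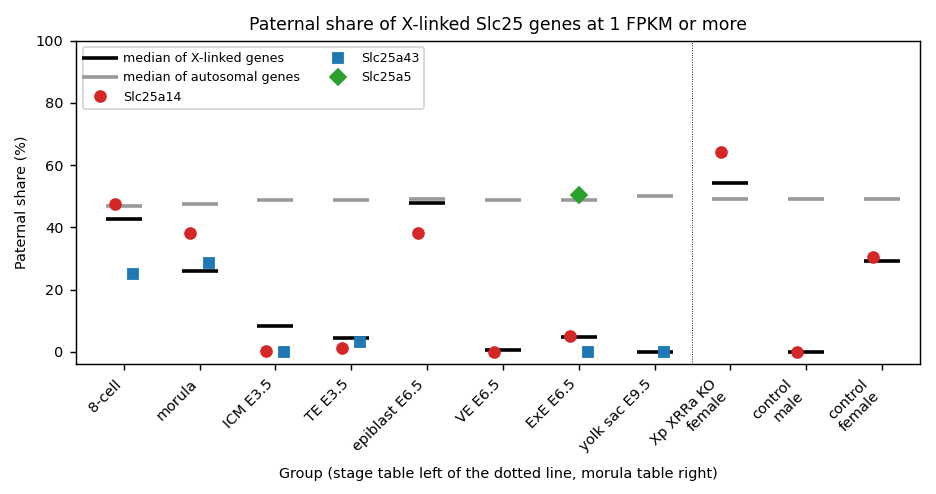
Paternal share (% of total FPKM) of the X-linked Slc25 genes at 1 FPKM or more in each pooled column, with the median of X-linked genes (black bar) and of autosomal genes (grey bar). Slc25a14 is at 5.03% or less in ICM, TE, VE and ExE, where the X-linked median is low, while the Slc25a5 point in ExE lies at 50.3%, beside the autosomal median.

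In the morula table Slc25a14 had 1.41 FPKM maternal and 2.53 FPKM paternal in Xp XRRa KO female morulae, 4.46 and 0 in control male morulae, and 3.25 and 1.43 in control female morulae. Its paternal share was 64.2% in Xp XRRa KO, 0% in control male and 30.5% in control female morulae. Males have no paternal X, so the male column shows how cleanly the alleles were told apart for this gene. The X-linked median was 54.2% in Xp XRRa KO, 0% in control male and 29.3% in control female morulae. Slc25a43 was under 1 FPKM in all 3 columns, with 0.940 FPKM in Xp XRRa KO, 0.165 in control male and 0 in control female morulae.

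The median share of the autosomal members lay near 50% outside yolk sac. Their median paternal share was 46.2% in 8-cell embryos, 46.7% in morulae, 47.8% in ICM, 50.4% in TE, 52.8% in epiblast, 48.9% in VE and 51.2% in ExE. The medians of all autosomal genes in these columns ran from 46.8% to 49.2%. In the morula table the members' medians were 53.8% in Xp XRRa KO, 52.6% in control male and 50.3% in control female morulae. The medians of all autosomal genes there were 49.3%, 49.1% and 49.2% in the same order. Yolk sac stood apart, with a median of 41.4% over 18 members and 9 of them at 20% or less or 80% or more, against 52.4% of all autosomal genes in that sparse column.

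Shares of 20% or less or of 80% or more were rare elsewhere and held few members. In 8-cell embryos 1 of 26 members was there, against 15.6% of autosomal genes, in morulae 1 of 26 (9.59%), in ICM 1 of 27 (8.46%), and in TE none of 26 (7.75%). In epiblast it was 1 of 28 (6.51%), in VE 1 of 29 (3.32%) and in ExE none of 27 (4.9%). In Xp XRRa KO morulae it was 1 of 27 (8.74%), in control male 2 of 27 (9.35%) and in control female 2 of 28 (11.8%). At 5 FPKM or more, the members concerned were Slc25a26 in ICM (13.5% of 8.84 FPKM) and Slc25a41 in control female morulae (12.1% of 25.8 FPKM). The rest had totals under 5 FPKM.

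Slc25a26 and Slc25a46 kept to 1 side of 50% in all 10 columns other than yolk sac, a rule set after seeing the data. Slc25a26 was below 50% throughout, with a lowest share of 0% in 8-cell embryos (total 1.19 FPKM), a median of 27.3% and a highest of 48.5% in epiblast. Of 6745 autosomal genes measured in at least 8 columns, 10.5% were below throughout. Slc25a46 was above 50% throughout, between 52.8% and 69.0% with a median of 63.1%; 5.49% of autosomal genes were above throughout. The other 22 of 24 members measured that often were not on 1 side, Slc25a11 among them at 50% to 62.8%. With 1 member on each side, the family did not stand out from the shares of all autosomal genes. Slc25a41, measured in fewer columns, lay between 12.1% and 35.7%. Across columns the members' shares ranged over a median of 28.6 points, against 25.2 points for all autosomal genes.

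**Figure D4:**
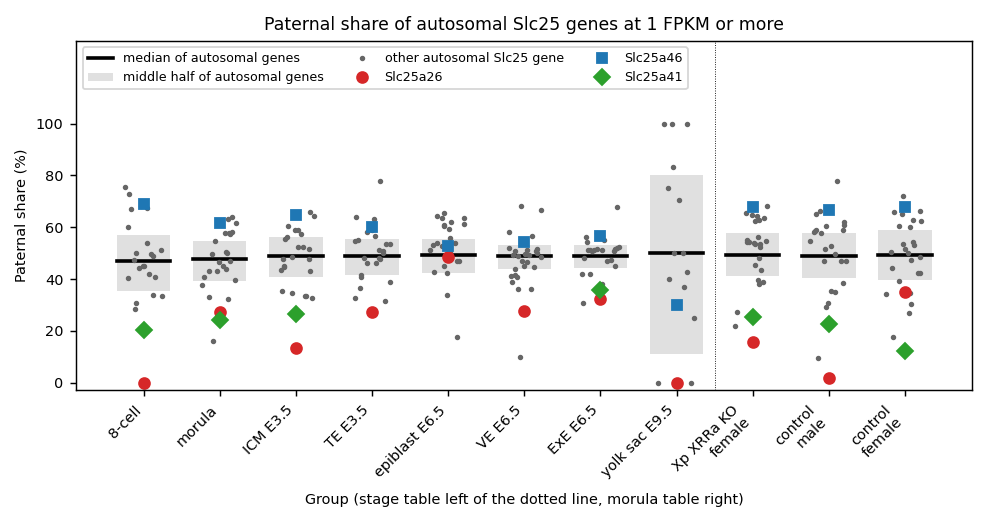
Paternal share (% of total FPKM) of autosomal Slc25 genes at 1 FPKM or more in each pooled column; black bars are medians of all autosomal genes and grey boxes span their quartiles. Slc25a26 and Slc25a41 lie below and Slc25a46 above the autosomal median outside yolk sac, where values spread from 0% to 100%.

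The autosomal members' shares differed little in the median between Xp XRRa KO and control female morulae. Over 26 members the difference (Xp XRRa KO minus control female) had a median of 0.188 points. In 3 of them it moved by 20 points or more, against 14.2% of autosomal genes: Slc25a1 (55.2% in Xp XRRa KO against 26.7% in control female), Slc25a25 (64.9% against 30.4%) and Slc25a28 (21.8% against 50%). All 3 had totals under 7 FPKM in both columns. Between the wild-type female morula columns of both tables, 2 of 25 members were 20 points apart, against 14.8% of autosomal genes.

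In the 13 EedmNull embryos the X-linked members could be followed embryo by embryo. The median paternal share over the other X-linked genes ran from 0% to 80.4% among embryos, with a middle value of 37.3%, over 269 to 299 genes per embryo. Slc25a14 was above 1 FPKM in all 13, with a total of 3.86 ± 1.24 FPKM (SD, n = 13), 2.77 ± 1.66 FPKM maternal and 1.09 ± 0.925 FPKM paternal. Its paternal share was 0% at the lowest, 24.4% in the median and 84.8% at the highest, and 4 embryos exceeded 50%. Slc25a43 had a total of 4.41 ± 0.895 FPKM (SD, n = 13), 3.21 ± 1.88 FPKM maternal and 1.20 ± 1.69 FPKM paternal. Its share was 0% in 6 embryos, 12.5% in the median and 100% in embryos 9 and 12. Relative to its mean, the total of each gene varied less between embryos than its paternal level.

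Neither gene passed the limma test of a difference between the alleles, fitted over 298 X-linked genes. The mean log2 ratio of paternal to maternal FPKM plus 1 was -0.86 for Slc25a14 (SE 0.33, Benjamini-Hochberg adjusted p = 0.0788, paternal lower in 9 of 13 embryos). For Slc25a43 it was -1.05 (SE 0.48, limma adjusted p = 0.0943, paternal lower in 10 of 13). By this test 9.4% of X-linked genes had a lower paternal allele, and the median over all of them was -0.75. Without embryo 13, the one with the highest paternal share, both passed, Slc25a14 at -1.03 (limma adjusted p = 0.0233) and Slc25a43 at -1.26 (adjusted p = 0.0361). The share of all X-linked genes past the test without embryo 13 was not counted. These calls are therefore not read as a trait of the members.

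Both genes were then set against the paternal X of their own embryo. Relative to the embryo's median X-linked gene, the limma estimate was -0.07 for Slc25a14 (SE 0.15, adjusted p = 0.735) and -0.26 for Slc25a43 (SE 0.36, adjusted p = 0.565), where 12.8% of genes were lower by this test. The slope on the embryo median was 0.90 for Slc25a14 (SE 0.12, limma adjusted p = 4.07e-06) and 0.96 for Slc25a43 (SE 0.31, adjusted p = 0.00937). A positive slope was called for 94.3% of the X-linked genes, so it does not mark these members out. For Slc25a43 the slope was 0.96 without embryo 4 (limma adjusted p = 0.0211) and 0.88 without embryo 13 (adjusted p = 0.0386). Against the median share of other X-linked genes, Slc25a14 had Pearson r = 0.939 and Spearman rho = 0.945 over 13 embryos. Each had a permutation p = 1e-05, the smallest that 100000 permutations can give, and p = 2e-05 adjusted over the 2 relations computed. Without embryos 4 and 13, the farthest from the median, r was 0.901 (permutation p = 0.00039). Slc25a43 had r = 0.613 and rho = 0.604 (permutation p = 0.0289 and 0.0341, unchanged after adjustment), and without the same embryos r was 0.481 (permutation p = 0.142), so the correlation of its shares no longer held without both. These correlations were not computed for the other X-linked genes, so they do not mark either member out.

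**Figure D5:**
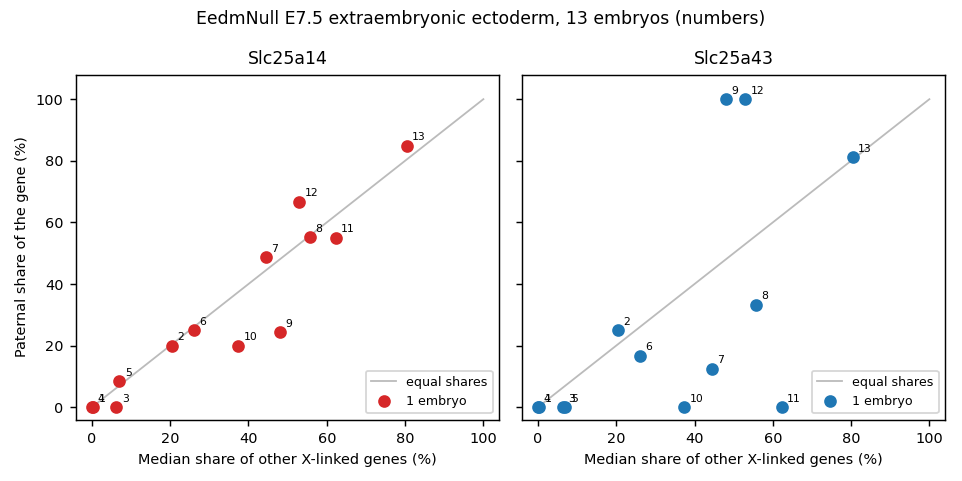
Paternal share of Slc25a14 (left) and Slc25a43 (right) against the median paternal share of other X-linked genes, in %, 1 numbered point per EedmNull embryo, with a line of equal shares. Slc25a14 lies near the line (r = 0.939), whereas Slc25a43 stands at 100% in embryos 9 and 12 and at 0% in embryos 10 and 11.

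Embryos 9 to 12, picked after seeing the data, set the members apart most clearly. Their X-linked medians were 48.1%, 37.3%, 62.3% and 52.9%. Slc25a14 had shares of 24.4%, 20%, 55% and 66.7% there, and Slc25a43 had 100%, 0%, 0% and 100%. Slc25a43 was therefore read from 1 allele only in these 4 embryos, at totals of 3.28 to 4.55 FPKM, where Slc25a14 was read from both. The number of reads behind these shares is unknown, and few reads can give shares of 0% or 100%. Their part here was not tested. Slc25a5 was listed at 0 for both alleles in 12 embryos and at 685.7 FPKM, all maternal, in embryo 4, whose median X-linked share was 0%. Slc25a53 stayed at or below 0.522 FPKM in all embryos and was not tested.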

How the data were processed

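Smart-seq2 expression in 42 mouse samples was analysed from 3 tables. The deposited values are allelic FPKM made by the authors; HISAT2 2.2.0, StringTie 2.1.1, Trim Galore 0.6.4 and the build mm9 are listed, per the submitters' processing notes. How reads were assigned to alleles is not given in the sources used here, nor is the annotation. The authors pooled replicates into 1 column per allele and group in the stage and morula tables and gave 1 column per allele and embryo for EedmNull. The tables were normalized separately. They hold no counts, so depth is unknown and no interval for it was computed. Pooled columns hide whether 1 sample carries a value. 5 summary lines were left out. Chromosomes and neighbours came from RefSeq GRCm38.p6, in which all 47 members were found; promoter windows carry its coordinates.

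Totals, paternal shares (total of at least 1 FPKM) and ratios on FPKM plus 1 were computed in Python 3.11.15 with pandas 2.3.3, numpy 2.4.6 and scipy 1.17.1. The size rule stood in for a test and was applied to every gene of a table. For EedmNull, limma 3.58.1 (R 4.3.3) was fitted to log2((paternal + 1)/(maternal + 1)) over genes with a mean total of at least 1 FPKM. An embryo with both alleles at 0 was left out for that gene, and genes with fewer than 3 embryos were dropped. The fit was made against 0, after subtracting the embryo median, and as a slope on it, with Benjamini-Hochberg adjustment at 0.05. Nothing says whether the samples came from separate litters, so p-values measure the spread between these embryos. Correlations used 100000 permutations, two-sided, with seed 7. Procedures were tested on simulated data.

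Every member could be named. Values are given in full for X-linked members, the 5 with the highest mean total, up to 5 per direction of the members farthest past the size rule, and the profiles that differ between carriers of like cargo. The members and lists were chosen with earlier results of these data known. Other pseudocounts, minimum values, centring and leaving out each embryo were tried. Not analysed here are the sequences of the proteins. 1 member is counted but not reported by name here.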

Additional observations from a re-analysis of the deposited data

How the results depend on the processing

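Alternatives to the pseudocount, the minimum, the scaling and the set of embryos gave 148 values, of which 118 counted as the same. For limma estimates this meant the same direction and side of the threshold. For counts past the size rule it meant a number within 1.5 times. Those counts pooled higher and lower members, so their direction was not checked. Centring on the median of all genes left 5 members past the size rule for epiblast over ICM, 3 for VE over ExE and 4 for ExE over epiblast, against 8, 6 and 7. A minimum of 1 FPKM gave 14 for VE over ICM, against 9, and 2 for Xp XRRa KO over control female morulae, against 1; a pseudocount of 0.1 FPKM also gave 2 there. Medians of autosomal members' paternal shares have no replicate spread, so every change counts as moved. With a total of at least 0.1 FPKM they were 44.8% in 8-cell, 45.7% in morula, 48.4% in ICM, 50% in TE, 51.9% in epiblast, 49.4% in VE, 50.8% in ExE, 53.6% in Xp XRRa KO, 53.7% in control male and 49.2% in control female morulae. With at least 5 FPKM they were 49.9% in 8-cell, 48.3% in morula, 51.4% in ICM, 50.9% in TE, 52.9% in epiblast, 49.4% in VE, 51.3% in ExE, 46.4% in yolk sac, 53.4% in Xp XRRa KO, 55.1% in control male and 52.3% in control female morulae. Leaving out 1 EedmNull embryo at a time, the limma log2 ratio of paternal to maternal alleles ran from -1.03 to -0.69 for Slc25a14 (adjusted p 0.0233 to 0.171) and from -1.33 to -0.91 for Slc25a43 (0.0361 to 0.192). Relative to the embryo median it ran from -0.13 to 0.02 for Slc25a14, the one positive value being 0.015 without embryo 9, and from -0.49 to -0.05 for Slc25a43. Slopes ran from 0.84 to 0.97 for Slc25a14 and from 0.82 to 1.19 for Slc25a43, all with an adjusted p of 0.0386 or less. Without the low-value filter the slopes were 1.40 and 1.48 and the values relative to the embryo median -0.34 and -0.54 for Slc25a14 and Slc25a43. A pseudocount of 0.1 FPKM gave allele ratios of -1.71 and -2.16, relative values of -0.34 and -0.79 and slopes of 1.10 and 1.17. None of these changed a call, and a mean total of at least 5 FPKM gave no value because both genes lie below it. The cause of these shifts was not tested. No paired analysis was possible because the groups compared were pooled into 1 column per allele; EedmNull is a single group, whose alleles were compared within each embryo. Unknown depth limits shares of low genes most.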
